A study of Mus musculus with 23 samples.

Results

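The Rab genes encode small GTPases that mark the membranes of the secretory and endocytic pathways. They were taken as every gene of the RNA-seq table whose identifier carries a symbol made of Rab, a number and at most 1 letter, which leaves out Rab regulators, binding proteins and pseudogenes. The rule gave 57 of the 20599 genes in the table. A Rab protein cycles between an inactive GDP-bound form in the cytosol and an active GTP-bound form on a membrane, where it recruits effectors that tether, move or dock vesicles. Exchange factors (GEFs) switch a Rab on, and GTPase-activating proteins (GAPs) switch it off. In β cells, Rab3 and Rab27 proteins sit on insulin granules and take part in their docking and release.

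RNA was measured by poly(A) RNA-seq in β-TC6 cells, an insulin-producing line from a mouse insulinoma, in 3 groups of 3 libraries. The groups were unedited β-TC6 cells (WT), *Bmal1*-/- cells, in which CRISPR-Cas9 had removed exon 8 of *Bmal1*, and *Clock*-/- cells, in which exons 6 and 7 of *Clock* had been removed. Each knockout line grew from a picked drug-resistant colony, neomycin for *Bmal1* and puromycin for *Clock*, so a genotype stands for 1 clone and a clone cannot be told apart from its genotype. The libraries of a group came from separate wells of the same line, and p-values here measure the spread between wells. THRAP3, an RNA-binding protein that also associates with chromatin, was mapped by ChIP-seq in 2 WT and 2 *Bmal1*-/- libraries.

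Levels are given in TPM, the authors' values, in which reads are divided by transcript length and scaled to the same total in each library. The reads behind them came to between 13046026 and 27149758 per library, of which between 61983 and 121352 fell on Rab genes. Differences are those of the mean log2(TPM + 1), with their standard error (SE) and the adjusted p of limma (Benjamini-Hochberg). Tests covered the 15031 genes that reached 1 TPM in 3 or more libraries. A gene is said to have risen or fallen at an adjusted p under 0.01, and to be past 2-fold where the difference also exceeded 1 in size. In bulk RNA, fewer cells of a type and less RNA per cell cannot be told apart.

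The 12 β-cell markers were present in all 9 libraries, with a summed level of 55010 to 57450 TPM in WT, 40100 to 42750 TPM in *Bmal1*-/- and 33910 to 39920 TPM in *Clock*-/- libraries. *Ins2* and *Iapp* carry these sums, and single markers went both ways. *Ins1* averaged 2307 TPM in WT, 2361 TPM in *Bmal1*-/- and 61.0 TPM in *Clock*-/- cells, while *Nkx6-1* averaged 265 TPM, 647 TPM and 505 TPM in the same order. For markers of other islet cells, 5 of 7 had values, and their sum was 568 to 586 TPM in WT, 101 to 111 TPM in *Bmal1*-/- and 1515 to 1690 TPM in *Clock*-/- libraries, mostly *Gcg* and *Sst*, although *Irx2* averaged 11.5 TPM in WT and 33.5 TPM in *Bmal1*-/- cells. For exocrine, duct, stromal and blood cells, 5 of 9 markers had values, with sums of at most 8.95 TPM, and 4 of the 5 were under 1 TPM in every library. The part of these shifts in the Rab results was not tested. Whole chromosomes were also shifted between the lines. The median difference of all genes on chromosome 11 was 0.36 in *Bmal1*-/- cells, while it was -0.35 on chromosome 1 in *Bmal1*-/- cells and -0.45 on chromosome 16 in *Clock*-/- cells, and their part was addressed by subtracting each chromosome's median. The level of *Arntl*, the annotation's name for *Bmal1*, and of *Clock* does not check the knockouts, because the edits remove few exons: *Arntl* was at 3.32 to 3.52 TPM in *Bmal1*-/- and 3.52 to 4.22 TPM in WT libraries.

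Together the 57 Rab genes summed to between 4166 and 4496 TPM in WT, 4486 and 4615 TPM in *Bmal1*-/- and 4430 and 4897 TPM in *Clock*-/- libraries, or 0.417% to 0.490% of all TPM. The highest in WT cells were *Rab2a*, *Rab1b*, *Rab1a*, *Rab7* and *Rab3a*. *Rab2a*, which acts between the endoplasmic reticulum and Golgi, stood at 772, 699.5 and 694 TPM in the WT libraries, above every other member. *Rab1b*, a regulator of export from the endoplasmic reticulum, followed at 455, 459.6 and 421 TPM. *Rab1a*, its close relative, was at 425, 411 and 378 TPM and *Rab7*, the Rab of late endosomes and lysosomes, at 398, 409 and 356 TPM. *Rab1a* overlapped both of its neighbours in this order, *Rab1b* and *Rab7*. *Rab3a*, the granule Rab, was at 197, 191 and 195 TPM. At the other end, 6 members never reached 1 TPM in 3 libraries and were not tested, namely *Rab19*, *Rab25*, *Rab26*, *Rab27b*, *Rab29* and *Rab38*, which leaves 51 tested members.

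**Figure D1:**
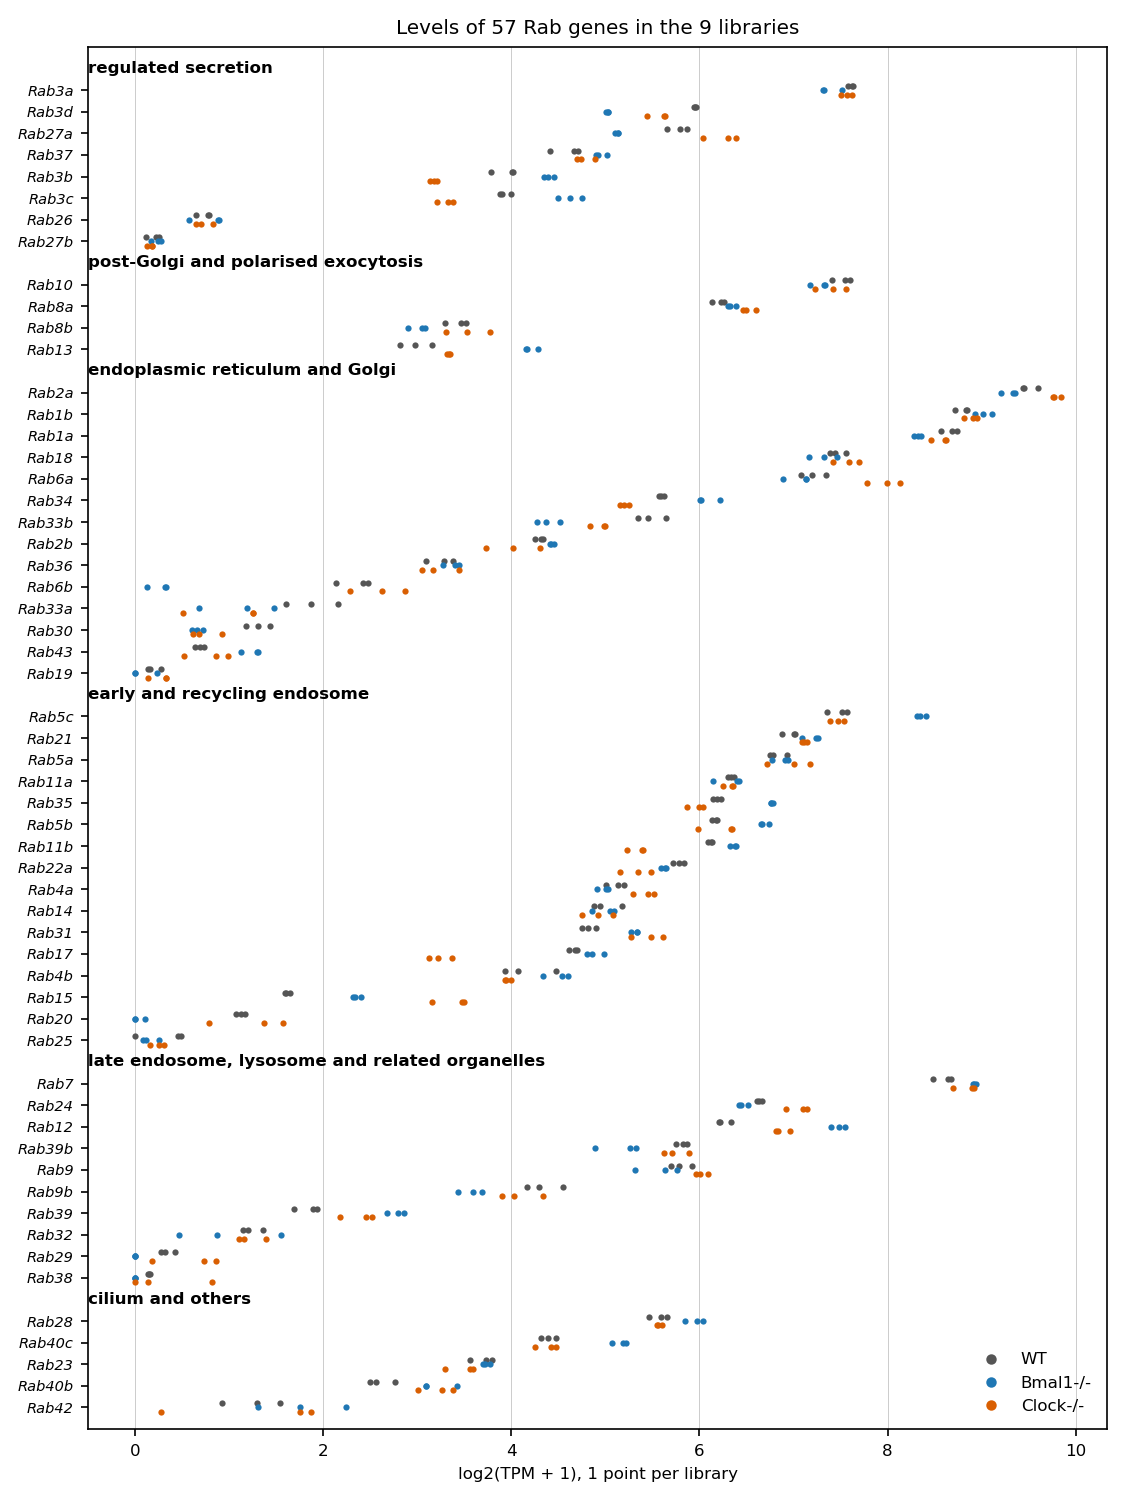
Levels of the 57 Rab genes as log2(TPM + 1), a log scale, with 1 point for each of the 3 libraries of WT (grey), *Bmal1*-/- (blue) and *Clock*-/- (orange) cells, grouped by the pathway in which each acts and ordered by WT level. *Rab2a* is the highest member, and *Rab6b* and *Rab20* lie near 0 in *Bmal1*-/- libraries.

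In *Bmal1*-/- cells, 15 of the 51 tested Rab genes rose (29.4%, against 18.4% of all genes tested) and 9 fell (17.6%, against 21% of all genes). The median difference of the 51 was 0.12, beside -0.04 over all genes. In *Clock*-/- cells, 10 rose (19.6%, against 9.5% of all genes) and 8 fell (15.7%, against 14.4%), and the median was 0.00 beside -0.02. Past 2-fold were 5 members in *Bmal1*-/- cells (9.80%, against 11.8%) and 2 in *Clock*-/- cells (3.92%, against 7.4%). Between the lines, 27 members differed (52.9%, against 44.6% of all genes), 14 being higher (27.5%, against 21.8%) and 13 lower (25.5%, against 22.8%) in *Clock*-/- than in *Bmal1*-/- cells, with 8 past 2-fold (15.7%, against 14.5%). The share of all genes is the background for each count. With the sign ignored, the median difference of the 51 was 0.38 in *Bmal1*-/- cells, beside 0.39 over all genes. It was 0.24 beside 0.27 in *Clock*-/- cells and 0.45 beside 0.42 between the lines. The comparisons of both lines with WT share the WT libraries.

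With the filter on low levels, *Rab30* and *Rab43* entered the tests only through the group where each is highest, *Rab30* through WT and *Rab43* through *Bmal1*-/- libraries. *Rab30*, a Golgi Rab, is among the 9 that fell in *Bmal1*-/- cells, by 0.65 (SE 0.15, adjusted p = 0.00418), which was lost without WT replicate 1 or 3 or any *Bmal1*-/- library (adjusted p from 0.0123 to 0.0178). Because of the filter the fall of *Rab30* is given as a description, although it stays in the counts of members that fell. *Rab43* passed in neither line. *Rab43* shares 74.2% of its 75-base stretches with other transcripts, mainly *Gm45140*, and *Rab4b* shares 52.5% with *Gm21983*, so their counts are uncertain. For *Rab3a*, *Rab20*, *Rab24*, *Rab2b*, *Rab33b* and *Rab6a*, among others, an annotated gene on the opposite strand overlaps an exon, and the strand setting of the counting is not given in the sources used here.

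**Figure D2:**
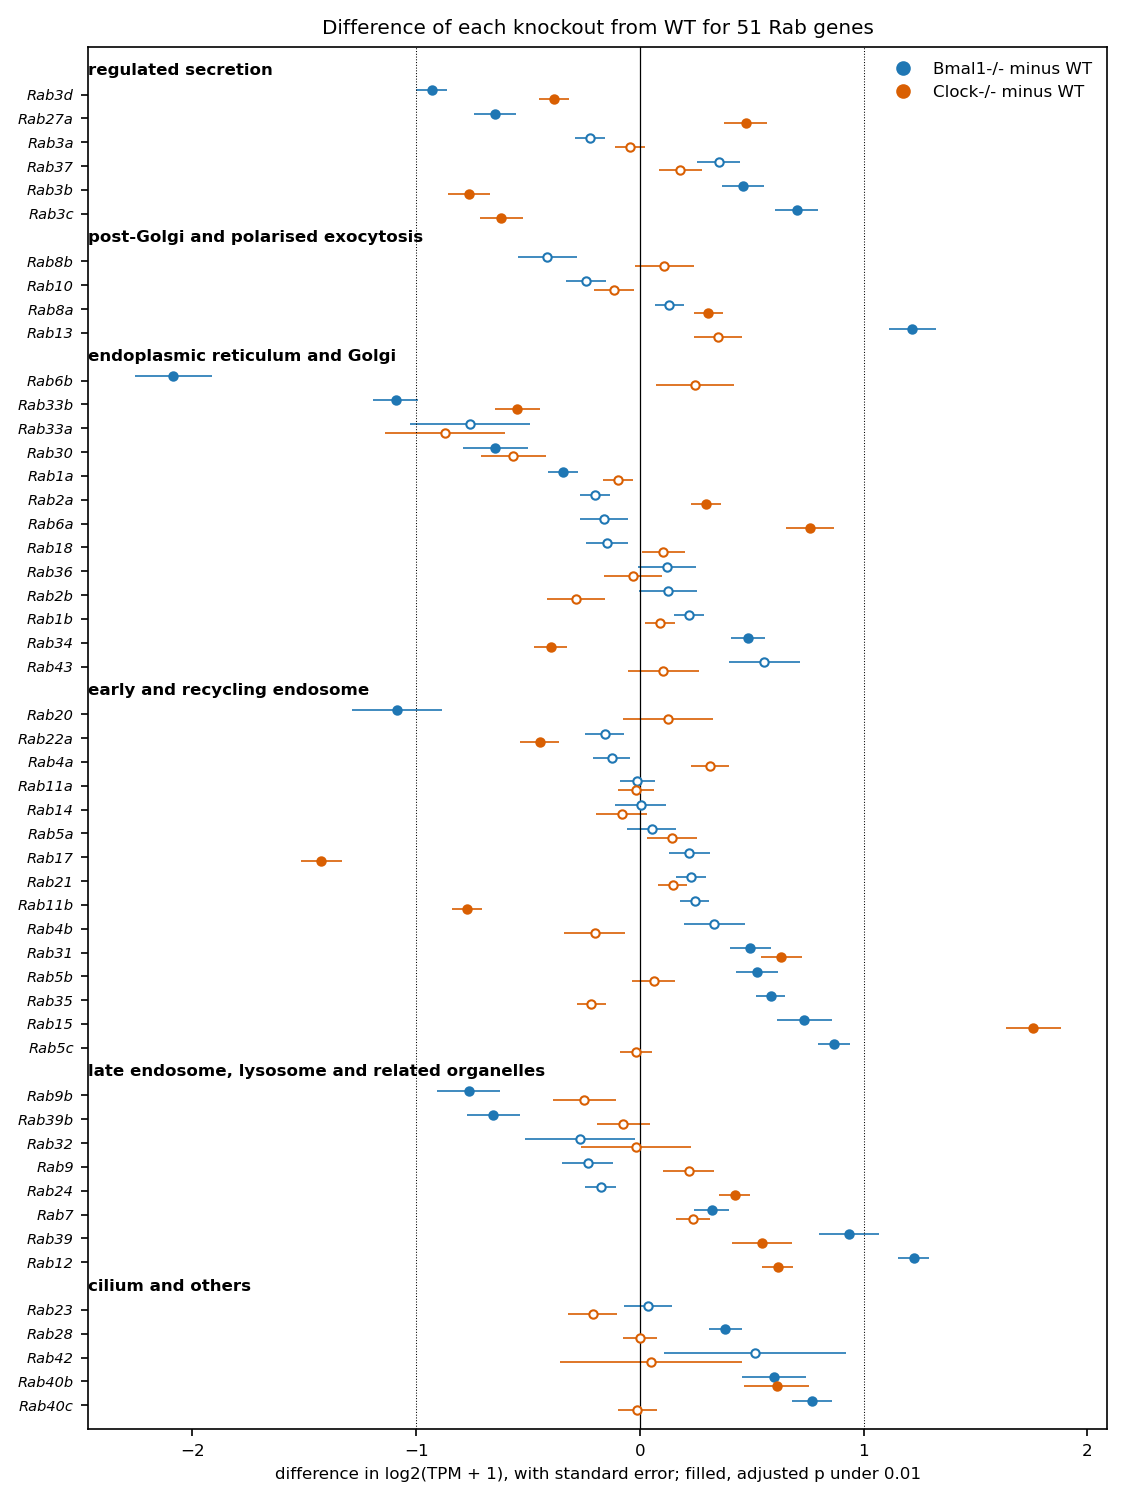
Difference of each knockout from WT in log2(TPM + 1), with its standard error, for the 51 tested Rab genes by pathway. Filled points have an adjusted p under 0.01 and dotted lines mark a difference of 1; *Rab6b* in *Bmal1*-/- cells and *Rab15* in *Clock*-/- cells are the farthest from 0.

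BMAL1 and CLOCK together bind the E-box sequence CACGTG. Exact matches, palindromic and so the same on both strands, were looked for in the 250 bases before the start of RefSeq transcripts (GRCm38.p6). Windows were given for 48 of the 57 Rab genes, 60 windows in all, and 5 genes had a match in 5 windows (8.33%, against 6.02% of 32851 windows of all genes). The genes are *Rab20* and *Rab27a*, which fell in *Bmal1*-/- cells, and *Rab5a*, *Rab21* and *Rab23*, which passed the test in neither line. In *Clock*-/- cells *Rab27a* rose and *Rab20* did not pass the test. Capitals mark the match, and positions are those of the printed stretch, on the strand of the gene.
Rab20 (chr8:11478669-11478698, minus strand, match 46 bases before the RefSeq start): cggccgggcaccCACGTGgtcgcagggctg
Rab27a (chr9:73063898-73063919, plus strand, match 246 bases before an alternative start): cttgCACGTGctcctccgtctg
Rab21 (chr10:115315604-115315633, minus strand, match 30 bases before the start): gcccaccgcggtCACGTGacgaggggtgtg
Rab23 (chr1:33719666-33719695, plus strand, match 218 bases before the start): cttcagtgctacCACGTGagtctcaggtgg
Rab5a (chr17:53478987-53479016, plus strand, match 235 bases before the start): aattggagaagaCACGTGacgcaaccccac
Rab5a (chr17:53479127-53479156, plus strand, match 95 bases before the start): acccggggatgtCACGTGacttcggccccg
A match of these letters is a description and not a bound site. Distances are from RefSeq starts. The GENCODE gene starts of *Rab20*, at 11478710, and of *Rab27a*, at 73044854, lie upstream of their matches. By that annotation the stretches of *Rab20* and *Rab27a* are inside the genes.

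The 8 Rab genes of regulated secretion include 6 above the filter. In *Bmal1*-/- cells 2 rose and 2 fell (33.3% each, against 18.4% and 21% of all genes), and in *Clock*-/- cells 1 rose and 3 fell (16.7% and 50.0%, against 9.5% and 14.4%). *Rab3a*, which cycles on and off insulin granules, was at 182, 158 and 159 TPM in *Bmal1*-/- and 196, 181 and 188 TPM in *Clock*-/- libraries. The WT and *Clock*-/- levels overlap, and the difference in *Bmal1*-/- cells, -0.22 (SE 0.07, adjusted p = 0.0192), did not pass the test; without *Bmal1*-/- replicate 1 it was -0.29 (adjusted p = 0.0046). *Rab3d*, a granule Rab of many secretory cells, was at 60.5, 61.3 and 61.1 TPM in WT, 31.6, 31.2 and 31.6 TPM in *Bmal1*-/- and 48.2, 42.7 and 48.8 TPM in *Clock*-/- libraries. It fell by 0.93 (SE 0.07, adjusted p = 3.75e-06) in *Bmal1*-/- cells and, less, by 0.38 (SE 0.07, adjusted p = 0.00176) in *Clock*-/- cells, and the lines differed by 0.55 (SE 0.07, adjusted p = 9.98e-05). Without WT replicate 2 the adjusted p of the *Clock*-/- fall was 0.0105.

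*Rab3b* and *Rab3c* moved in opposite directions in the lines. *Rab3b* was at 15.1, 15.2 and 12.8 TPM in WT, 19.9, 20.9 and 19.4 TPM in *Bmal1*-/- and 7.77, 8.07 and 8.25 TPM in *Clock*-/- libraries. It rose by 0.46 (SE 0.09, adjusted p = 0.00223) in *Bmal1*-/- cells and fell by 0.76 (SE 0.09, adjusted p = 0.000178) in *Clock*-/- cells, a difference of -1.22 (SE 0.09, adjusted p = 4e-06) between the lines. No WT library overlapped either knockout. Without *Bmal1*-/- replicate 2 the rise had an adjusted p of 0.0123. *Rab3c* was at 14.9, 13.8 and 13.9 TPM in WT, 21.6, 26.0 and 23.7 TPM in *Bmal1*-/- and 9.05, 8.26 and 9.41 TPM in *Clock*-/- libraries, and rose by 0.70 (SE 0.10, adjusted p = 0.000192) in *Bmal1*-/- cells against a fall of 0.62 (SE 0.10, adjusted p = 0.000761) in *Clock*-/- cells.

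*Rab27a*, the Rab that anchors docked granules at the cell surface, did the reverse. Its level was 57.4, 54.4 and 49.6 TPM in WT, 34.1, 33.4 and 34.2 TPM in *Bmal1*-/- and 78.2, 64.9 and 82.8 TPM in *Clock*-/- libraries. It fell by 0.65 (SE 0.10, adjusted p = 0.000319) in *Bmal1*-/- and rose by 0.47 (SE 0.10, adjusted p = 0.00357) in *Clock*-/- cells, and differed between the lines by 1.12 (SE 0.10, adjusted p = 8.38e-06). The rise was lost without WT replicate 2 or 3 or *Clock*-/- replicate 1, at adjusted p between 0.0142 and 0.0184. *Rab37* was at 24.4, 25.1 and 20.3 TPM in WT and 31.3, 29.0 and 29.4 TPM in *Bmal1*-/- libraries, a difference of 0.35 (SE 0.10, adjusted p = 0.0119), and lies on chromosome 11; with its chromosome's median subtracted the difference was 0.00 (adjusted p = 0.97), whereas without *Clock*-/- replicate 3 it stood at 0.35 (adjusted p = 0.0084). *Rab26* was between 0.494 and 0.865 TPM and *Rab27b* between 0.0892 and 0.215 TPM over all libraries, the latter from 6 to 21 reads, and neither was tested.

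**Figure D3:**
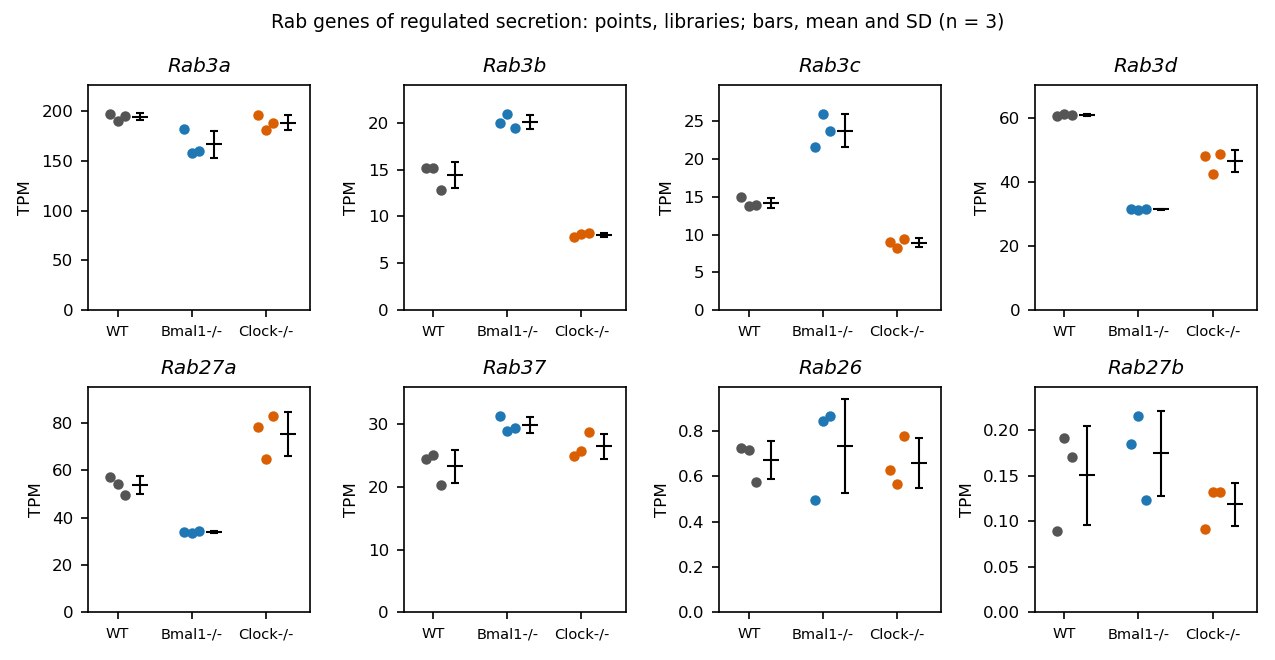
TPM of the 8 Rab genes of regulated secretion in WT, *Bmal1*-/- and *Clock*-/- libraries, with 1 point per library and a bar for the mean and SD (n = 3). *Rab3b* and *Rab3c* are highest in *Bmal1*-/- and lowest in *Clock*-/- libraries, while *Rab27a* runs the other way.

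The 4 Rab genes of post-Golgi and polarised exocytosis are *Rab8a*, *Rab8b*, *Rab10* and *Rab13*. In each line 1 of the 4 rose and 0 fell. Of all genes, 18.4% rose and 21% fell in *Bmal1*-/- cells, and 9.5% rose and 14.4% fell in *Clock*-/- cells. *Rab13*, which acts at tight junctions, was at 6.07, 7.94 and 6.90 TPM in WT, 18.5, 16.9 and 17.0 TPM in *Bmal1*-/- and 9.14, 9.21 and 8.96 TPM in *Clock*-/- libraries. The *Bmal1*-/- libraries stood above the other groups, with a rise of 1.22 (SE 0.11, adjusted p = 1.07e-05); in *Clock*-/- cells the difference was 0.35 (SE 0.11, adjusted p = 0.0263). *Rab8a*, which directs vesicles to the plasma membrane and the cilium, rose by 0.31 (SE 0.06, adjusted p = 0.00454) in *Clock*-/- cells, a rise lost without WT replicate 1 or 2, *Bmal1*-/- replicate 3 or *Clock*-/- replicate 1 (adjusted p up to 0.0249) and with the chromosome median subtracted (0.25, adjusted p = 0.025).

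The endoplasmic reticulum and Golgi list holds 14 Rab genes, and 13 entered the test. Among them 1 rose and 4 fell in *Bmal1*-/- cells (7.69% and 30.8%, against 18.4% and 21% of all genes). The 4 include *Rab30*, which entered the test only through WT. In *Clock*-/- cells 2 rose and 2 fell (15.4% each, against 9.5% and 14.4%). *Rab6b* showed the largest fall of any tested Rab gene in *Bmal1*-/- cells on the log2(TPM + 1) scale. It encodes a Golgi Rab related to the ubiquitous *Rab6a*. Its level was 4.38, 4.58 and 3.41 TPM in WT, 0.252, 0.261 and 0.0981 TPM in *Bmal1*-/- and 5.18, 3.89 and 6.30 TPM in *Clock*-/- libraries, from 3 to 12 reads in each *Bmal1*-/- library. WT and *Clock*-/- levels overlap, and all *Bmal1*-/- libraries lie below them. The fall was 2.08 (SE 0.17, adjusted p = 8.03e-06) and the lines differed by 2.33 (SE 0.17, adjusted p = 3.49e-06). Since 1 was added before the log, the size of this change is understated: of the group's reads it took a share 19.4-fold lower (95% exact interval 12.8 to 30.7, counting error only), and the log2 difference of reads by voom was -4.30.

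*Rab6a* was at 162, 146 and 135 TPM in WT and 118, 139 and 139 TPM in *Bmal1*-/- libraries, a difference of -0.16 (SE 0.11, adjusted p = 0.235), and rose to 255, 219 and 279.7 TPM in *Clock*-/- libraries, by 0.76 (SE 0.11, adjusted p = 0.000465). *Rab33b*, a Golgi Rab with a part in autophagy, was at 49.2, 42.8 and 39.7 TPM in WT, 18.4, 19.7 and 22.0 TPM in *Bmal1*-/- and 30.6, 27.5 and 30.8 TPM in *Clock*-/- libraries. It fell by 1.09 (SE 0.10, adjusted p = 1.62e-05) and by 0.55 (SE 0.10, adjusted p = 0.00214), and without WT replicate 1 the second fall had an adjusted p of 0.0101. With the median of chromosome 3 subtracted, the *Bmal1*-/- difference was -0.92 (adjusted p = 4.28e-06), and so not past 2-fold. *Rab2a* went from its WT level to 915, 867 and 872 TPM in *Clock*-/- libraries, up by 0.29 (SE 0.07, adjusted p = 0.00666), but this was lost without WT replicate 2 or 3, *Bmal1*-/- replicate 2 or 3 or *Clock*-/- replicate 1 (adjusted p from 0.0108 to 0.0342) and with the chromosome median subtracted (0.22, adjusted p = 0.0451). *Rab1a* was at 309.9, 319 and 327 TPM in *Bmal1*-/- libraries and fell by 0.34 (SE 0.07, adjusted p = 0.00173), or by 0.70 (adjusted p = 4.8e-06) with the median of chromosome 11 subtracted, while *Rab1b* was at 552, 487 and 517 TPM there, a difference of 0.22 (SE 0.07, adjusted p = 0.0216) that passed with libraries scaled by size factors (0.26, adjusted p = 0.0098).

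*Rab34*, a Golgi and ciliary Rab on chromosome 11, was at 47.2, 46.7 and 48.5 TPM in WT, 73.5, 63.5 and 63.6 TPM in *Bmal1*-/- and 37.0, 35.7 and 34.6 TPM in *Clock*-/- libraries. It rose by 0.48 (SE 0.07, adjusted p = 0.000404) and fell by 0.40 (SE 0.07, adjusted p = 0.00224) in the respective lines. The rise on chromosome 11, whose median was 0.36 higher, came to 0.13 (adjusted p = 0.228) once that median was subtracted, and the fall stood at -0.45 (adjusted p = 0.0025). The fall had an adjusted p of 0.0104 without WT replicate 3, and was -0.36 (adjusted p = 0.0122) with libraries scaled by size factors and -0.34 (adjusted p = 0.0106) by voom on the reads.

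The early and recycling endosome list holds 16 Rab genes, and 15 entered the test. Of these, 5 rose and 1 fell in *Bmal1*-/- cells (33.3% and 6.67%, against 18.4% and 21% of all genes), and in *Clock*-/- cells 2 rose and 3 fell (13.3% and 20.0%, against 9.5% and 14.4%). The summed level of the list was 890 to 904 TPM in WT, 1143 to 1175 TPM in *Bmal1*-/- and 816 to 926 TPM in *Clock*-/- libraries. *Rab5c*, on chromosome 11, weighs heavily in it, with a mean of 178 TPM in WT and 326 TPM in *Bmal1*-/- libraries. *Rab15*, a Rab of the endocytic recycling compartment that the study itself named from these libraries, was at 2.13, 2.03 and 2.06 TPM in WT, 4.28, 4.01 and 4.06 TPM in *Bmal1*-/- and 10.1, 7.92 and 10.3 TPM in *Clock*-/- libraries. The groups did not overlap. It rose by 0.73 (SE 0.12, adjusted p = 0.000668) and by 1.76 (SE 0.12, adjusted p = 4.12e-06), and the lines differed by 1.02 (SE 0.12, adjusted p = 7.21e-05). On the reads themselves the rises were 0.98 and 2.24. *Rab17*, a Rab of epithelial transcytosis, was at 23.5, 24.6 and 24.9 TPM in WT, 30.6, 28.0 and 27.0 TPM in *Bmal1*-/- and 8.34, 9.32 and 7.71 TPM in *Clock*-/- libraries, and fell by 1.42 (SE 0.09, adjusted p = 2.46e-06) in *Clock*-/- cells. The difference in *Bmal1*-/- cells was 0.22 (SE 0.09, adjusted p = 0.0653), or 0.57 (adjusted p = 0.0033) with the median of chromosome 1 subtracted, and the lines differed by -1.64 (SE 0.09, adjusted p = 5.77e-07). *Rab22a*, an endosomal Rab, fell by 0.45 (SE 0.09, adjusted p = 0.00287) in *Clock*-/- cells, lost without WT replicate 1 or 2 or *Clock*-/- replicate 1 (adjusted p from 0.0114 to 0.0147).

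*Rab11b*, a Rab of the recycling endosome, was at 67.2, 69.5 and 68.7 TPM in WT, 82.3, 79.0 and 82.6 TPM in *Bmal1*-/- and 41.4, 36.6 and 41.1 TPM in *Clock*-/- libraries. It fell by 0.77 (SE 0.07, adjusted p = 1.74e-05) in *Clock*-/- cells and differed by -1.02 (SE 0.07, adjusted p = 1.56e-06) between the lines, whereas its sister *Rab11a* stood at 80.2, 81.0 and 75.3 TPM in *Clock*-/- and 81.5, 78.2 and 79.6 TPM in WT libraries, a difference of -0.02 (SE 0.08, adjusted p = 0.886). Rab5 proteins organise early endosomes and have 3 genes. *Rab5c* was at 163, 182 and 189 TPM in WT and 338, 323 and 316 TPM in *Bmal1*-/- libraries and rose by 0.87 (SE 0.07, adjusted p = 7.28e-06), or by 0.51 (adjusted p = 0.00049) with the median of chromosome 11 subtracted. *Rab5b* rose by 0.52 (SE 0.09, adjusted p = 0.00113), and *Rab5a* had a difference of 0.05 (SE 0.11, adjusted p = 0.717). *Rab35*, a Rab of fast recycling, rose by 0.58 (SE 0.06, adjusted p = 4.28e-05), and *Rab31*, of traffic between the Golgi and endosomes, by 0.49 (SE 0.09, adjusted p = 0.00142), with 0.63 (SE 0.09, adjusted p = 0.000552) in *Clock*-/- cells.

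*Rab20*, linked to phagosome maturation, was near the limit of detection, with 11, 9 and 9 reads in WT, 0, 1 and 0 reads in *Bmal1*-/- and 17, 5 and 11 reads in *Clock*-/- libraries, or 1.25, 1.10 and 1.18 TPM, 0, 0.0786 and 0 TPM and 1.99, 0.725 and 1.60 TPM. The *Bmal1*-/- libraries were below all others. Its share of reads was 36.7-fold lower than in WT (95% exact interval 6.08 to 1497, counting error only), and the log2 difference of -1.09 (SE 0.20, adjusted p = 0.00127) depends on the added 1.

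The late endosome and lysosome list holds 10 Rab genes, 8 of them tested. In *Bmal1*-/- cells, where 18.4% of all genes rose and 21% fell, 3 of the 8 rose and 2 fell. In *Clock*-/- cells, where 9.5% of all genes rose and 14.4% fell, 3 of the 8 rose and 0 fell. *Rab12*, which acts in the turnover of recycling receptors, was at 79.5, 72.9 and 73.5 TPM in WT, 168, 186 and 179 TPM in *Bmal1*-/- and 111, 113 and 124 TPM in *Clock*-/- libraries. No library of 1 group reached another group's range. It rose by 1.22 (SE 0.07, adjusted p = 6.93e-07) and by 0.61 (SE 0.07, adjusted p = 0.000103), with the lines -0.61 (SE 0.07, adjusted p = 5.16e-05) apart. *Rab7* rose by 0.32 (SE 0.08, adjusted p = 0.00572) in *Bmal1*-/- cells, from its WT level to 478, 481 and 491 TPM, and this was lost without any WT or *Bmal1*-/- library but WT replicate 2 (adjusted p from 0.0137 to 0.0244). The falls in *Bmal1*-/- cells were of *Rab39b*, by 0.66 (SE 0.12, adjusted p = 0.00114), and *Rab9b*, by 0.76 (SE 0.14, adjusted p = 0.00128). Both lie on the X chromosome. With its median subtracted the differences were -0.50 (adjusted p = 0.000619) for *Rab39b* and -0.61 (adjusted p = 0.000288) for *Rab9b*. *Rab24*, linked to autophagy, rose by 0.42 (SE 0.07, adjusted p = 0.00114) in *Clock*-/- cells, a call lost with its chromosome's median subtracted (0.36, adjusted p = 0.0238).

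The last 5 genes act in the cilium or have other roles, and 3 rose in *Bmal1*-/- cells (60.0%, against 18.4% of all genes). They were *Rab40c*, by 0.77 (SE 0.09, adjusted p = 6.55e-05), *Rab28*, by 0.38 (SE 0.08, adjusted p = 0.00196), and *Rab40b*, by 0.60 (SE 0.14, adjusted p = 0.00583). The rise of *Rab28* was lost without *Bmal1*-/- replicate 2 or 3 (adjusted p = 0.0107 in each). *Rab40b*, on chromosome 11, lost its call without WT replicate 1 or 3, any *Bmal1*-/- library or *Clock*-/- replicate 1 (adjusted p from 0.0106 to 0.0282) and came to 0.24 (adjusted p = 0.123) with the chromosome's median subtracted. It also rose in *Clock*-/- cells, by 0.61 (SE 0.14, adjusted p = 0.00803), lost without any library but *Bmal1*-/- replicate 3 or *Clock*-/- replicate 2 (adjusted p from 0.0121 to 0.0345).

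*Rab39*, a late endosomal Rab, rose by 0.93 (SE 0.13, adjusted p = 0.000262) in *Bmal1*-/- cells. Its rise in *Clock*-/- cells, by 0.55 (SE 0.13, adjusted p = 0.00991), was lost without any single library other than *Clock*-/- replicate 2 (adjusted p from 0.0153 to 0.0449). The 20 members that passed in neither line include *Rab4a*, *Rab9*, *Rab10*, *Rab14*, *Rab18* and *Rab21*. Their differences ran from -0.76 (*Rab33a*) to 0.56 (*Rab43*) in *Bmal1*-/- cells, and in *Clock*-/- cells from -0.87 (*Rab33a*) to 0.31 (*Rab4a*).

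Rabs depend on a cycle of other proteins. Of the 159 genes for prenylation and recycling factors, GEFs, GAPs and effectors in the table, 147 entered the test. In *Bmal1*-/- cells 40 rose and 25 fell, 44.2% in all against 39.4% of all genes tested, and in *Clock*-/- cells 12 rose and 18 fell, 20.4% against 23.9%. Their median difference was 0.15 and -0.04, beside -0.04 and -0.02 over all genes. By class in *Bmal1*-/- cells, where 18.4% of all genes rose and 21% fell, 10 of 38 GAPs rose and 4 fell, 15 of 41 GEFs rose and 4 fell, 14 of 60 effectors rose and 13 fell, and 1 of 8 prenylation and recycling genes rose and 4 fell. The *Clock*-/- counts, against 9.5% and 14.4% of all genes, were 3 and 6 for GAPs, 2 and 3 for GEFs, 6 and 8 for effectors and 1 and 1 for prenylation and recycling.

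The largest rise among GEFs in *Bmal1*-/- cells was of *Madd*, the exchange factor of Rab3 and Rab27 proteins. It was at 31.7, 29.0 and 25.5 TPM in WT, 82.6, 69.2 and 74.8 TPM in *Bmal1*-/- and 32.9, 24.9 and 35.3 TPM in *Clock*-/- libraries, a rise of 1.37 (SE 0.13, adjusted p = 2.36e-05) in *Bmal1*-/- cells. The *Clock*-/- range took in every WT library, with a difference of 0.10 (SE 0.13, adjusted p = 0.612). *St5*, a GEF of the DENN family, was at 16.7, 15.3 and 14.7 TPM in WT, 39.1, 34.6 and 38.7 TPM in *Bmal1*-/- and 7.92, 7.17 and 10.6 TPM in *Clock*-/- libraries. It rose by 1.22 (SE 0.13, adjusted p = 3.94e-05) and fell by 0.81 (SE 0.13, adjusted p = 0.000913). *Dennd6b* fell by 1.50 (SE 0.12, adjusted p = 8.18e-06) in *Bmal1*-/- cells, and *Trappc2*, a subunit of the TRAPP exchange complex, by 0.91 (SE 0.17, adjusted p = 0.00122). *Dennd4c* rose by 1.01 (SE 0.25, adjusted p = 0.00754) there, a rise lost without any of the 3 WT or 3 *Bmal1*-/- libraries or *Clock*-/- replicate 1 (adjusted p from 0.013 to 0.0303). *Dennd5b* fell by 0.58 (SE 0.14, adjusted p = 0.00543) and by 0.86 (SE 0.14, adjusted p = 0.000936), the former lost without any *Bmal1*-/- library or WT replicate 1 or 2 (adjusted p from 0.0173 to 0.0274).

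In the recycling group, *Chml*, an escort protein for newly made Rabs, fell from 35.5, 34.7 and 29.3 TPM in WT to 8.00, 10.5 and 10.5 TPM in *Bmal1*-/- libraries, by 1.68 (SE 0.16, adjusted p = 1.88e-05), and was at 31.9, 26.9 and 41.1 TPM in *Clock*-/- libraries. *Gdi2*, a Rab recycling factor, did not pass in either line. Of the GAPs, *Tbc1d8* rose by 1.14 (SE 0.10, adjusted p = 1.2e-05) and by 0.66 (SE 0.10, adjusted p = 0.000687) in the lines, while in *Clock*-/- cells *Tbc1d30* rose by 1.31 (SE 0.14, adjusted p = 6.28e-05) and *Sgsm1* and *Tbc1d31* fell by 1.21 (SE 0.13, adjusted p = 9.55e-05) and 1.09 (SE 0.14, adjusted p = 0.000214).

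*Sytl4*, granuphilin, which docks granules through Rab27a, was among the highest of the list at 337, 320.1 and 295 TPM in WT, 503, 530.2 and 512 TPM in *Bmal1*-/- and 731, 618 and 820.0 TPM in *Clock*-/- libraries. It rose by 0.70 (SE 0.10, adjusted p = 0.000221) and by 1.18 (SE 0.10, adjusted p = 1.36e-05), with no overlap among the groups. *Rph3al*, the effector Noc2, was at 87.8, 83.0 and 74.1 TPM in WT, 209, 182 and 189 TPM in *Bmal1*-/- and 56.6, 49.0 and 60.2 TPM in *Clock*-/- libraries, and so rose by 1.24 (SE 0.10, adjusted p = 5.17e-06) and fell by 0.56 (SE 0.10, adjusted p = 0.00143). On chromosome 11, its rise was 0.88 (adjusted p = 5.3e-06) with the median subtracted. *Mlph*, melanophilin, which ties Rab27a to myosin, fell by 1.01 (SE 0.13, adjusted p = 0.000153) and by 0.93 (SE 0.13, adjusted p = 0.00046). With the median of chromosome 1 subtracted, its differences were -0.66 (adjusted p = 0.00252) and -0.68 (adjusted p = 0.0038), so neither was past 2-fold.

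*Myrip*, another Rab27a link to myosin, had 51, 36 and 43 reads in WT, 0, 0 and 0 reads in *Bmal1*-/- and 0, 1 and 3 reads in *Clock*-/- libraries. In *Bmal1*-/- cells the 95% exact interval of its share of reads, counting error only, begins at 43.9-fold lower. With a floor of 3 reads set for the group, and no error counted for the WT reads, the value is 54.8-fold. In *Clock*-/- cells the share was 28.3-fold lower (95% exact interval 10.8 to 105, counting error only). *Myrip* passed the filter on low levels only through WT, the group where it is highest, so its falls are given as a description. *Doc2b*, a calcium sensor of exocytosis that, like *Myrip*, the study named from these libraries, rose from 1.93, 2.03 and 1.71 TPM in WT to 4.75, 5.60 and 4.90 TPM and 8.03, 5.78 and 9.08 TPM in *Bmal1*-/- and *Clock*-/- libraries, by 1.07 (SE 0.15, adjusted p = 0.000283) and 1.56 (SE 0.15, adjusted p = 4.64e-05). The place of *Doc2b* in these lists does not show that it binds a Rab. *Rims2*, a Rab3 effector of the active zone, did not pass in either line, and its *Clock*-/- difference of -0.74 (SE 0.21, adjusted p = 0.0196) was -0.98 (adjusted p = 0.0009) without *Clock*-/- replicate 3. Other named members are *Sytl5*, at -1.36 (SE 0.32, adjusted p = 0.00534) in *Bmal1*-/- cells and lost without any WT or *Bmal1*-/- library (adjusted p from 0.013 to 0.0205), *Exoc6b*, at -0.99 (SE 0.12, adjusted p = 0.000114), and *Plekhm1*, a Rab7 effector, at 1.12 (SE 0.15, adjusted p = 0.000171).

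*Rph3a*, rabphilin, an effector of Rab3 and Rab27 proteins, is below the level set for naming and was chosen after its values were seen. It was at 3.63, 3.27 and 2.87 TPM in WT, 0.0912, 0.118 and 0 TPM in *Bmal1*-/- and 0.281, 0.435 and 0.522 TPM in *Clock*-/- libraries, and fell by 1.99 (SE 0.14, adjusted p = 3.37e-06) and by 1.59 (SE 0.14, adjusted p = 2.46e-05), sizes that depend on the added 1. *Rph3a* passed the filter on low levels only through WT, the group where it is highest, so its falls are given as a description.

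Further effectors were named by the size of their change. *Ocrl*, an inositol phosphatase that binds several Rabs, rose by 0.87 (SE 0.13, adjusted p = 0.000278) in *Bmal1*-/- cells and fell by 0.52 (SE 0.13, adjusted p = 0.00879) in *Clock*-/- cells, the fall lost without any single library but *Clock*-/- replicate 3 (adjusted p from 0.0124 to 0.039). *Appl2*, a Rab5 effector, rose by 0.65 (SE 0.15, adjusted p = 0.00409) and by 0.79 (SE 0.15, adjusted p = 0.00217). The first was lost without WT replicate 2 or 3 or *Bmal1*-/- replicate 2 or 3 (adjusted p from 0.015 to 0.0185), and the second without WT replicate 2 (adjusted p = 0.0114). *Exoc6*, an exocyst subunit, rose by 0.66 (SE 0.14, adjusted p = 0.00553) in *Clock*-/- cells, lost without any WT library, *Bmal1*-/- replicate 2 or *Clock*-/- replicate 1 or 3 (adjusted p from 0.0105 to 0.0254).

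**Figure D4:**
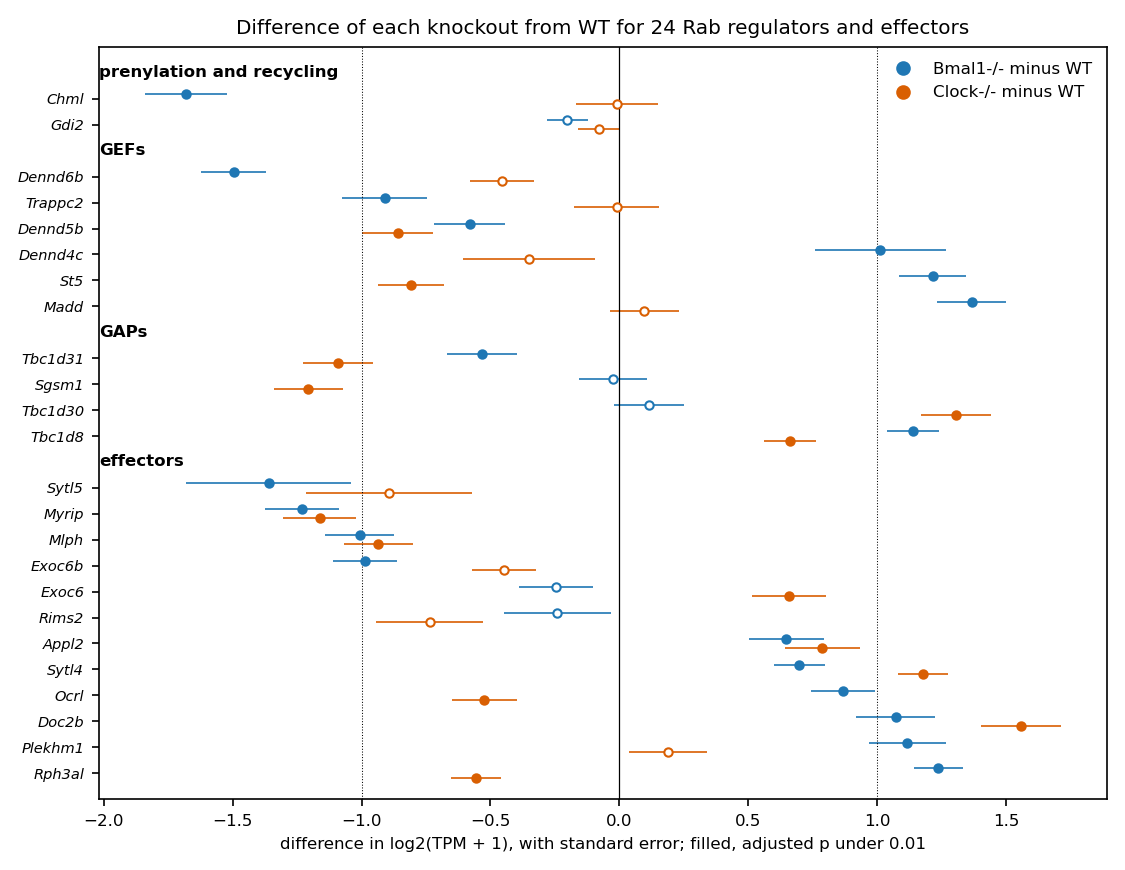
Difference of each knockout from WT in log2(TPM + 1), with its standard error, for 24 genes listed as regulators and effectors of Rabs, grouped by the part in the cycle under which each was listed. Filled points have an adjusted p under 0.01; *Rph3al* and *St5* are above 0 in *Bmal1*-/- and below 0 in *Clock*-/- cells.

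In the authors' THRAP3 peak lists, a peak centre lay within 1 kb of the start of 0 and 4 Rab genes in the WT libraries, and of 16 and 14 in the *Bmal1*-/- libraries. These are 7.02% of the 57 Rab genes in WT replicate 2 and 28.1% and 24.6% in the *Bmal1*-/- libraries. The share of all 20499 genes placed was 0.902% and 8.89% in WT and 23.3% and 19.2% in *Bmal1*-/- libraries, and that of the RNA-tested genes 1.14% and 11.2%, and 29.8% and 24.5%. Peaks were called separately in each library, with 808 and 6128 in WT and 12949 and 12226 in *Bmal1*-/- libraries at 12296107 to 14961095 tags, so the number of Rab genes with a peak moves with the number of peaks called. With 2 libraries per genotype no test was made. In *Bmal1*-/- cells, 23 Rab genes had a peak in at least 1 library (40.4%, against 30.0% of all genes placed and 38.3% of the tested genes) and 7 in both (12.3%, against 12.5% and 16.1%), namely *Rab1b*, *Rab2a*, *Rab5b*, *Rab13*, *Rab28*, *Rab33b* and *Rab35*. Of these, *Rab5b*, *Rab13*, *Rab28* and *Rab35* had risen and *Rab33b* had fallen in *Bmal1*-/- cells. Over all genes tested, with or without a peak, 18.4% rose and 21% fell in that line. The share among all genes with a peak in both libraries was not counted. Whether these peaks and the changes in RNA are related was not tested. The *Rab13* peaks also overlap its neighbour *Rps27*. *Rab28* was the only Rab gene with a peak centre within 1 kb of its start in 3 libraries. Others, such as *Rab33b*, had peaks in as many libraries only when the gene body counted.

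*Rab5b* had a peak in both *Bmal1*-/- libraries just outside its gene, with 17.3 and 14.7 normalised tags and 6.62-fold and 8.45-fold over input. Its RNA was at 72.0, 71.2 and 69.0 TPM in WT and 99.7, 106 and 101 TPM in *Bmal1*-/- libraries. The stretch that both peaks share (mm10, chr10:128696358-128696597, minus strand, from 333 to 94 bases before the gene start) is printed as an example of a Rab promoter under THRAP3 peaks, with the letters CCAAT or its reverse complement ATTGG, chosen after its sequence was read, in capitals.
Rab5b: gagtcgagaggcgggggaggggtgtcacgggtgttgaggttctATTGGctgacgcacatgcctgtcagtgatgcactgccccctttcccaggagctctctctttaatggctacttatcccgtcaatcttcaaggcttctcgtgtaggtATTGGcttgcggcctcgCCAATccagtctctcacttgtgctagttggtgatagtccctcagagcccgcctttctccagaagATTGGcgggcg
It holds 4 matches, and 33.0% of equally long windows before all starts hold at least 1 and 0.798% hold at least as many. Since the letters were chosen from this same stretch, these shares are a description and not a test. Whether the peak and the rise of *Rab5b* are related was not tested.

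**Figure D5:**
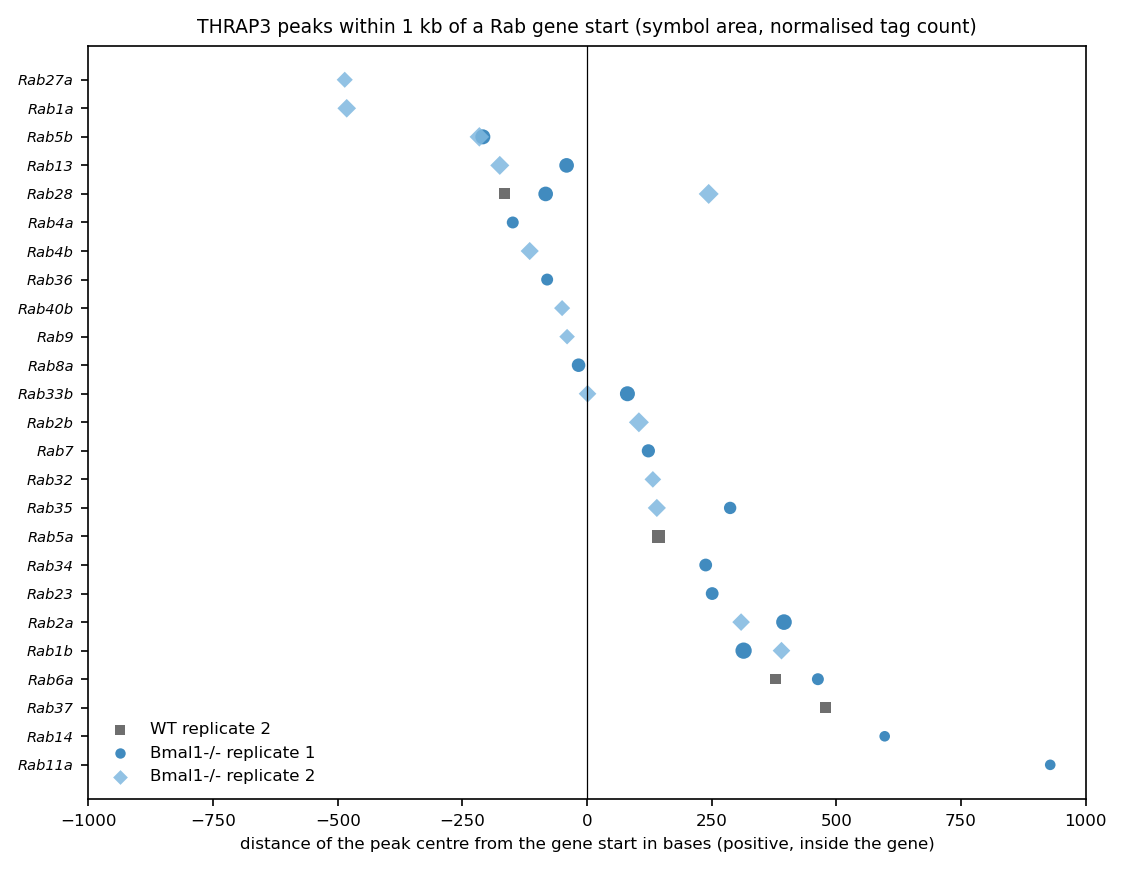
Position of THRAP3 peak centres within 1 kb of a Rab gene start in the 3 libraries that had any, with the distance in bases on the x axis (positive inside the gene) and symbol area in proportion to the normalised tag count. *Rab28* has a peak in all 3, and *Rab5a* and *Rab37* only in WT replicate 2.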

How the data were processed

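RNA-seq values are the authors' deposited TPM of 20599 genes in 9 libraries (3 per genotype, grouped by the sample labels), made with STAR 2.5.0 on mm10, gencode vM10 and featureCounts 1.5.3. The step to TPM is not given in the sources used here. Identifiers were matched to the GENCODE vM21 annotation (20499 of 20599). Tests used limma 3.58.1 (R 4.3.3) on log2(TPM + 1), with all 9 libraries, a mean-variance trend, genes reaching 1 TPM in 3 or more libraries and Benjamini-Hochberg adjustment. The TPM of 100% of genes stood in the ratio of whole reads between libraries, within a tolerance of 0.0001, and the smallest such numbers were taken as reads, which understates a gene whose reads share a divisor. They gave the depth, 13046026 to 27149758 reads per library, and were fitted with voom as an alternative chosen after seeing the data. Intervals cover counting error only. The limma step was tested on simulated data. The authors' own comparison tables (fold changes and p-values of DESeq2 1.22.1) were not used.

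THRAP3 peaks are the authors' HOMER lists in mm10, called in each library over the pooled input of its genotype, with reads aligned by Bowtie2 2.2.4. The deposited signal is the normalised tag count of a peak, and the deposited ratio is its fold over input. eCLIP and input libraries were not analysed here.

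The members and lists were chosen with earlier results of these data known. Genes were named if past 2-fold in any comparison, if in regulated secretion, if among the 5 highest in WT or, for *Rab15*, because the study's text names it; others were added after their values were seen. Regulators and effectors were named by the 5 largest rises and falls of each comparison with a mean TPM of at least 5, and *Madd*, *Myrip*, *Rims2*, *Sytl4*, *Rph3al* and *Gdi2*, and 1 more gene under this rule is not reported here. Shared 75-base stretches and exon overlaps were counted in Python 3.11.15 on the vM21 transcripts. The alternatives tried were other pseudocounts, filters, scalings and fits, chromosome medians subtracted, each library left out, a replicate block and other peak rules.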

Additional observations from a re-analysis of the deposited data

Results flagged for a closer look

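*Rab3b*, *Rab3c*, *Rab27a* and *Rab34* passed the test in both knockout lines with opposite signs, and the difference between *Clock*-/- and *Bmal1*-/- cells passed the limma test. Given opposite calls against WT in the same fit, that difference follows and is given as a description. In log2(TPM + 1), *Clock*-/- minus *Bmal1*-/-, it was -1.22 for *Rab3b*, -1.32 for *Rab3c*, 1.12 for *Rab27a* and -0.88 for *Rab34*. For *Rab34*, the rise in *Bmal1*-/- cells came to 0.13 (adjusted p = 0.228) with the median of chromosome 11 subtracted. The cause of these differences was not tested.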

How the results depend on the processing

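Of the 69 Rab differences past the test, 47 stayed past it in the same direction under each alternative that tested them, 22 were lost in at least 1 and 0 reversed. The filter at a mean TPM of 5 did not test low members such as *Rab6b*, *Rab20* and *Rab39*. Of the 84 not past it, 26 passed in at least 1. The 10 Rab genes that rose in *Clock*-/- cells came to 5 in a fit of WT and *Clock*-/- libraries only, and to between 5 and 11 without 1 library (5 without WT replicate 2 or *Clock*-/- replicate 1, 6 without WT replicate 3). The 65 regulators and effectors that passed in *Bmal1*-/- cells came to between 41 and 84 without 1 library, with 42 without WT replicate 2 and 41 without *Bmal1*-/- replicate 1 or 3. The 30 in *Clock*-/- cells came to 18 in the fit of those groups only, 47 by voom on the reads, and between 17 and 43 without 1 library, with 17, 18 and 19 without WT replicate 1, WT replicate 2 and *Clock*-/- replicate 1. Other counts stayed within 1.5 times under each alternative. Without 1 library the Rab genes that rose and fell ranged from 11 to 17 and 8 to 10 in *Bmal1*-/- cells, the falls in *Clock*-/- cells from 6 to 10, and the rises and falls between the lines from 11 to 14 and 12 to 14. Rab genes with a THRAP3 peak, 4 in WT and 23 in *Bmal1*-/- libraries, came to 9 in WT when the gene body or 1 kb before it counted, to 10 in *Bmal1*-/- with peaks at least 8-fold over input, and to 0 and 7 in both libraries, with ranges of 0 to 4 and 14 to 16 from 1 library. Replicate numbers are shared by the groups but did not pair the libraries: deviations of same-numbered libraries correlated at -0.208 to 0.0742, others at -0.163 to 0.212. With the number as a replicate block, 13 and 10 Rab genes rose and fell in *Bmal1*-/- cells and 6 and 9 in *Clock*-/- cells. The cause of these changes was not tested. The lowest members, such as *Rab27b* with 6 to 21 reads per library, are limited by depth.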
